A study of Rattus norvegicus with 9 samples.

Results

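The insulin-like growth factor (IGF) system of the rat left ventricle was described through 9 genes of a table of 35843 genes, chosen by symbol: the ligands Igf1 and Igf2, the receptor Igf1r and the binding proteins Igfbp2 to Igfbp7. Each symbol stood in 1 row of the table, so that all 9 genes had 1 value per rat. RNA was taken from left ventricles of Sprague-Dawley rats (SD Rat in the labels) on day 28 after surgery, with 3 biological replicates in each of 3 groups. Group Sham went through the operation without ligation, group MI had the left anterior descending coronary artery ligated, and group MI + DAPA (1st d), called group DAPA below, had the same ligation and received dapagliflozin (DAPA), an inhibitor of the sodium-glucose cotransporter SGLT2, daily from the first day, while the other two groups were given saline by gavage. No group received DAPA without infarction, so an effect of DAPA on the uninjured heart could not be separated. The study used adult male rats. By its methods, tissue for molecular work came mainly from the infarct border with the scar cut away, and Sham tissue came from the matching site, while the transcriptome of group MI is also called that of infarct myocardium. How much scar remained in a piece was not measured here.

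IGF1 and IGF2 are small peptides related to insulin that act on cells through the tyrosine kinase receptor encoded by Igf1r, which recruits the insulin receptor substrates and the PI3K-AKT and MAPK cascades. Most IGF in tissue and blood is held by IGF-binding proteins, which prolong its life, keep it from the receptor, or release it when proteases cut them. In the heart, IGF1 is known for promoting growth and survival of cardiomyocytes, and macrophages and fibroblasts are among its sources in injured tissue.

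Between 13601967 and 17212076 reads were recovered per rat. Reads outside the mitochondrial genome ranged from 5703621 to 13174150, since the mitochondrial genome took 61.1% to 66.9% of the reads in the Sham rats, 7.07% to 19.1% in the MI rats and 17.5% to 32.0% in the DAPA rats. FPKM is the number of read pairs of a gene scaled to its length and to a library size, and the deposited values were scaled so that the median gene was level between libraries. The median log2 fold change over all genes was -0.01 in MI vs. Sham, and it became 0.92 when the values were set per recovered read with the mitochondrial genome included. The fold changes below are therefore relative to the other genes of the nuclear genome. MI rat 2 stood apart. It had the highest FPKM of 5 of the 9 genes, the lowest mitochondrial share, and the highest mean log2(FPKM + 1) of B cell and plasma cell markers (6.59, against 1.79 and 4.25 in the other MI rats and 0.90 to 1.47 in the Sham and DAPA rats). Some of the values of single genes and shares that moved by over 1.5 times without it are given both ways. Of the 14 cardiomyocyte markers listed, 13 were found and none of these was at 0 in every rat. Their mean log2(FPKM + 1) was lowest in MI rat 2 (6.51, against 7.72 and 8.63 in the other MI rats and 7.90 to 9.26 in the Sham and DAPA rats). MI rat 2 also had the lowest mean of endothelial markers (5.38) and the highest of fibroblast (7.97), macrophage (6.96), T cell (5.02) and mesothelial (2.75) markers. Its means of mural and adipocyte markers were neither the highest nor the lowest.

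Relative to the other nuclear genes, Igf1 rose and Igf2 fell in MI vs. Sham, and the binding proteins Igfbp3, Igfbp4, Igfbp5 and Igfbp6 rose together. A gene was called when its unadjusted limma p lay below 0.05 with a log2 fold change above 1 in either direction. Of the 9 genes, 8 passed the filter on low values (3 or more of the 6 rats compared at 1 FPKM or above) and Igfbp2 did not. Of these 8, 5 were called higher in group MI, against 12.1% of all genes tested, and 1 was called lower, against 10.3%. The rats of both groups did not overlap for 6 genes that were higher in group MI, against 27.1% of all genes, and for 1 that was lower, against 27.5%. The median log2 fold change of the 8 genes was 1.92 and that of all genes -0.01.

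**Figure D1:**
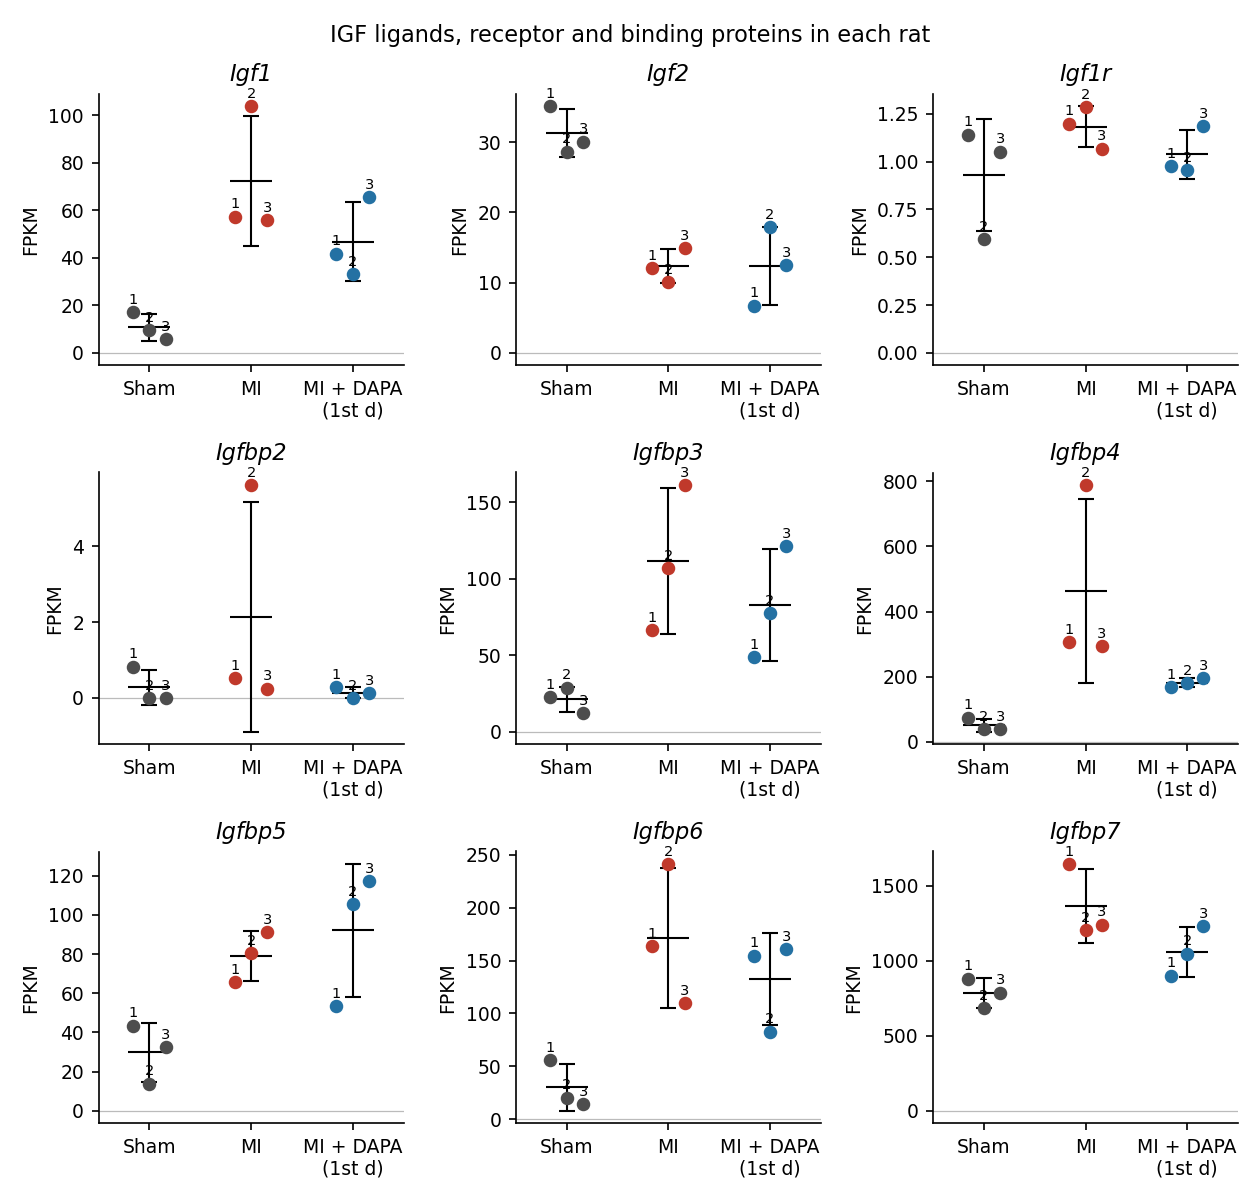
FPKM of the 9 genes in each rat. Points are rats, labelled by replicate number, and the horizontal mark and bar are the group mean and SD (n = 3). The y axis is FPKM on a linear scale that differs between genes. Igf1, Igfbp3, Igfbp4, Igfbp5, Igfbp6 and Igfbp7 had every MI rat above every Sham rat, Igf2 had every MI rat below, and Igfbp4 was the gene with every DAPA rat below every MI rat.

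Igf1 encodes the ligand through which growth hormone acts on many tissues. Its FPKM was 17.0, 9.66 and 5.66 in Sham rats 1, 2 and 3, 57.3, 104 and 55.9 in the MI rats, and 41.7, 33.1 and 65.5 in the DAPA rats. Every MI rat and every DAPA rat lay above the highest Sham rat, while the DAPA rats overlapped the MI rats. By mean FPKM Igf1 was 6.72-fold above group Sham in group MI (72.4 ± 27.3 vs. 10.8 ± 5.74, SD, n = 3), with a log2 fold change of 2.70 (SE 0.40; limma, Benjamini-Hochberg adjusted p = 0.0030). Without MI rat 2 the log2 fold change was 2.41. In a piece of tissue, a change in the number of cells that express a gene and a change in its RNA per cell cannot be told apart. In group DAPA Igf1 was 46.8 ± 16.8 (SD, n = 3), which was 2.08 above group Sham on the log2 scale (SE 0.39; limma, Benjamini-Hochberg adjusted p = 0.0085). The difference from group MI, -0.61 (SE 0.33), did not pass (limma, Benjamini-Hochberg adjusted p = 0.57) and was -0.33 without MI rat 2.

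Igf2 encodes the ligand that prevails before birth and is expressed from the paternal allele in most tissues. It had 35.2, 28.7 and 30.1 FPKM in the Sham rats, 12.1, 10.1 and 14.9 in the MI rats, and 6.69, 17.9 and 12.5 in the DAPA rats. The Sham rats were the 3 highest of all 9, and the DAPA rats spanned the range of the MI rats on both sides. Igf2 fell in MI vs. Sham by 1.28 on the log2 scale (SE 0.18; limma, Benjamini-Hochberg adjusted p = 0.0025), from 31.3 ± 3.43 to 12.4 ± 2.43 FPKM (SD, n = 3). In group DAPA it was 12.3 ± 5.58, lower than in group Sham by a log2 fold change of -1.37 (SE 0.31; limma, Benjamini-Hochberg adjusted p = 0.017) and -0.08 from group MI (SE 0.33, adjusted p = 0.94 by the same test), with -0.21 for the latter without MI rat 2. This fall depended on the scaling. Scaled to all recovered reads, Igf2 had an RPM of 102 ± 18.6 (Sham), 86.4 ± 13.4 (MI) and 73.8 ± 30.9 (DAPA; SD, n = 3). The log2 fold changes from group Sham under that scaling were -0.23 for group MI and -0.52 for group DAPA, and neither was called. Igf2 thus fell relative to the other nuclear genes, while the difference in its share of all reads did not pass. The library kit did not mark strand as far as the labels say, so reads of Igf2 and of any antisense transcript at its locus could not be separated.

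The promoter windows of both ligands are shown because Igf1 rose and Igf2 fell relative to the other nuclear genes. Each window is 300 bases long, from 250 bases before to 50 bases after a RefSeq transcription start, on build GRCr8, written 5′ to 3′ in the direction of transcription. Capitals mark every match, on either strand, to 4 motifs: the TATA box TATAAA, the GC box GGGCGG, the AP-1 site TGANTCA and the SMAD core CAGAC.
Igf1 (chr7:24172282-24172581, + strand): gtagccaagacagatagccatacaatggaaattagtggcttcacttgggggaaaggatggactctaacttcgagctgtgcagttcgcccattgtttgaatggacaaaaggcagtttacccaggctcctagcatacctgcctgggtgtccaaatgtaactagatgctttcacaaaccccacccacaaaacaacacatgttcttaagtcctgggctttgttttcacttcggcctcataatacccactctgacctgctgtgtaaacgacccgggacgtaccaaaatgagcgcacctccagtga
Igf2 window A (chr1:207250426-207250725, - strand): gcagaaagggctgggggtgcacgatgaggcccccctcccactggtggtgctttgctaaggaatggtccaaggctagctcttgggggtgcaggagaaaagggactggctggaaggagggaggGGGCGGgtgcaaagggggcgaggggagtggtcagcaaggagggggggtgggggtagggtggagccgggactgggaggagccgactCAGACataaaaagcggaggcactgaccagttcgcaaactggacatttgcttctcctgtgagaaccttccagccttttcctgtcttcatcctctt
Igf2 window B (chr1:207253931-207254230, - strand): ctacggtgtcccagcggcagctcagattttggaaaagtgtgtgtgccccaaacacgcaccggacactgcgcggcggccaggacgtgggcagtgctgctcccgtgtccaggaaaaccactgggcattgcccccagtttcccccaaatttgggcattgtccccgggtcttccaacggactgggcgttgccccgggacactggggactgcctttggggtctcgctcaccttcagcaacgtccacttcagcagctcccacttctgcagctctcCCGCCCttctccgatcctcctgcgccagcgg
The Igf1 window held none of the 4 motifs and had 48.3% G and C with 7 CpG dinucleotides. The Igf2 windows held 1 GC box each, and window A also held 1 SMAD core. Over all 33469 RefSeq windows, TATAAA was found in 14.2%, GGGCGG in 33.1%, TGANTCA in 7.33% and CAGAC in 50.1%. Among the 10 windows of the 9 genes, TATAAA was found in 1, GGGCGG in 5, TGANTCA in 0 and CAGAC in 3. A match shows that the letters are present and nothing of binding.

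Because both ligands were measured in the same library, their ratio did not depend on the scaling between libraries. Igf1 made up 32.5%, 25.2% and 15.8% of the summed ligand FPKM in Sham rats 1, 2 and 3, 82.6%, 91.1% and 78.9% in the MI rats, and 86.2%, 65.0% and 84.0% in the DAPA rats. Igf2 was the more abundant ligand in every Sham rat and Igf1 in every infarcted rat, treated or not. The ratio of Igf2 to Igf1 was 3.42 ± 1.64 (Sham), 0.193 ± 0.0868 (MI) and 0.298 ± 0.210 (DAPA) (SD, n = 3). Its difference in MI vs. Sham was -4.16 on the log2 scale (SE 0.59; two-sided exact permutation p = 0.1, the smallest that 3 rats against 3 allow), and in DAPA vs. Sham -3.63 (SE 0.67; exact permutation p = 0.1). In DAPA vs. MI it was 0.53 (SE 0.70; exact permutation p = 0.6), and 0.10 without MI rat 2. The summed ligand level was 42.1 ± 8.82 FPKM (Sham), 84.7 ± 25.3 (MI) and 59.1 ± 16.4 (DAPA) (SD, n = 3).

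**Figure D2:**
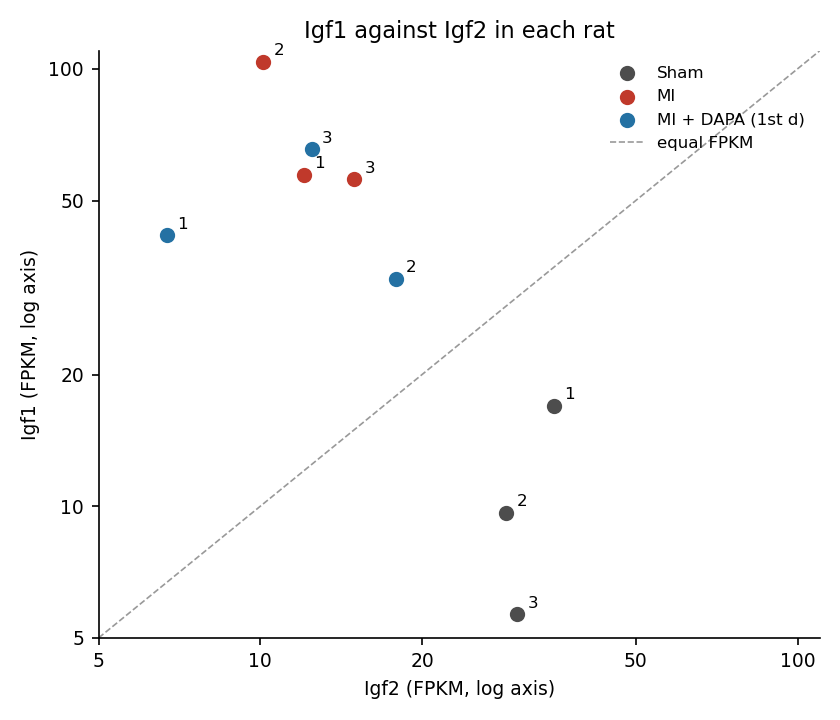
Igf1 against Igf2 FPKM in each rat, both on log axes, with the replicate number beside each point. The dashed line marks equal FPKM. The 3 Sham rats lie below it, and the 6 infarcted rats lie above it, with MI rat 2 at the highest Igf1.

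Igf1r, the receptor of both ligands, was low in all groups. It had 1.14, 0.594 and 1.05 FPKM in the Sham rats, 1.20, 1.28 and 1.07 in the MI rats, and 0.975, 0.956 and 1.19 in the DAPA rats, so that all 3 groups overlapped. These values rest on 25 to 95 reads per rat. The log2 fold change was 0.19 in MI vs. Sham (SE 0.22; limma, Benjamini-Hochberg adjusted p = 0.52), -0.10 in DAPA vs. MI (SE 0.18, adjusted p = 0.85) and 0.09 in DAPA vs. Sham (SE 0.24, adjusted p = 0.81). On log2(FPKM + 1) the fold change of a gene near 1 FPKM is understated.

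Igfbp7, also known as insulin-like growth factor-binding protein-related protein 1, binds IGFs weakly and is abundant in vessel walls. It was the most abundant of the 9 genes in every group, with 881, 686 and 787 FPKM in the Sham rats, 1647, 1207 and 1241 in the MI rats, and 901, 1048 and 1233 in the DAPA rats. Every MI rat and every DAPA rat exceeded the highest Sham rat, and the DAPA rats overlapped the MI rats. The difference in MI vs. Sham was 0.79 on the log2 scale (SE 0.21; limma, Benjamini-Hochberg adjusted p = 0.023), 1.74-fold by mean FPKM. It was below the fold-change threshold, so Igfbp7 was not among the called genes. In DAPA vs. Sham it was 0.43 (SE 0.23, adjusted p = 0.19) and in DAPA vs. MI -0.36 (SE 0.27, adjusted p = 0.64). Set per recovered read, the differences from group Sham were 1.90 and 1.32, past the threshold. Its promoter window, shown as that of the most abundant gene, held 4 GC boxes and 1 SMAD core.
Igfbp7 (chr14:31091486-31091785, + strand): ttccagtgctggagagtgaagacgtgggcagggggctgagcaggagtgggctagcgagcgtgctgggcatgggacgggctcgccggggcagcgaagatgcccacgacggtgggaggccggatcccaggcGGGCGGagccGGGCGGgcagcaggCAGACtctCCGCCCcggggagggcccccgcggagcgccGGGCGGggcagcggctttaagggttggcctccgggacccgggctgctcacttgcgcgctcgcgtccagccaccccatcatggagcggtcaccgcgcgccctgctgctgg

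Igfbp4, a binding protein that inhibits IGF action until the protease PAPP-A cuts it, had the largest log2 fold change of the 8 genes in MI vs. Sham and was the one gene called in DAPA vs. MI. Its FPKM was 74.7, 40.1 and 39.3 in the Sham rats, 307, 789 and 293 in the MI rats, and 168, 180 and 196 in the DAPA rats. The 3 groups did not overlap in any pair, and MI rat 2 was 2.57-fold above the next rat. Igfbp4 rose 9.02-fold in MI vs. Sham by mean FPKM, a log2 fold change of 3.05 (SE 0.43; limma, Benjamini-Hochberg adjusted p = 0.0027), which was 2.59 without MI rat 2. In DAPA vs. Sham it rose by 1.86 on the log2 scale (SE 0.26; limma, Benjamini-Hochberg adjusted p = 0.0034). The promoter window of Igfbp4 was the one of the 10 with a TATA box, beginning 40 bases before the start, and is shown for that gene.
Igfbp4 (chr10:84491221-84491520, + strand): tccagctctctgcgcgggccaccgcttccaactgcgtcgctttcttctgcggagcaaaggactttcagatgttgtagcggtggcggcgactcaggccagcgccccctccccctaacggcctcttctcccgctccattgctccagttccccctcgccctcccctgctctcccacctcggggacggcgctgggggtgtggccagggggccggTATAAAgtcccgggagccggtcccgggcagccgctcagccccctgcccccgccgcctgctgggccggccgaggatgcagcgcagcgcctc

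In DAPA vs. MI, Igfbp4 was lower in group DAPA in all 3 rats, at 181 ± 13.9 FPKM against 463 ± 282 (SD, n = 3). The log2 fold change was -1.19 (SE 0.39; exact permutation p = 0.1), which limma called at its unadjusted p, while the Benjamini-Hochberg adjusted p of limma over all genes was 0.56. Of the 8 genes tested, 1 was called lower, against 1.11% of all genes, and 0 were called higher, against 0.951%. Rats without overlap were found for 1 gene in the lower direction, against 7.16% of all genes, and for 0 in the higher direction, against 6.63%. With limma, 0 of 13251 genes had an adjusted p under 0.05 in this comparison, and 1125 genes had an unadjusted p under 0.05. The size of the Igfbp4 difference rested on MI rat 2. Without it the log2 fold change was -0.73, under the fold-change threshold, and without DAPA rat 1 it was -1.14 and missed the threshold on p. The other 7 tested genes had log2 fold changes from -0.61 for Igf1 to 0.15 for Igfbp5, all with standard errors of 0.18 to 0.42 and none past the threshold. The median of the 8 genes was -0.36 and that of all genes -0.02. MI vs. Sham and DAPA vs. MI share the MI rats, so a high MI rat raises the first difference and lowers the second.

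Igfbp3, the main carrier of IGFs in blood, had 22.5, 28.8 and 12.3 FPKM in the Sham rats, 66.5, 107 and 162 in the MI rats, and 49.0, 77.7 and 122 in the DAPA rats. All infarcted rats lay above the Sham rats, and the DAPA rats overlapped the MI rats. It rose by a log2 fold change of 2.33 in MI vs. Sham (SE 0.39; limma, Benjamini-Hochberg adjusted p = 0.0049) and of 1.90 in DAPA vs. Sham (SE 0.39; limma, Benjamini-Hochberg adjusted p = 0.012).

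Igfbp6, which prefers IGF2 over IGF1 as a ligand, had 55.8, 20.6 and 14.7 FPKM in the Sham rats, 163, 241 and 110 in the MI rats, and 155, 82.9 and 160 in the DAPA rats. The lowest infarcted rat, a DAPA rat, was still above the highest Sham rat. Its log2 fold change was 2.61 in MI vs. Sham (SE 0.50; limma, Benjamini-Hochberg adjusted p = 0.0072), 2.33 without MI rat 2, and 2.26 in DAPA vs. Sham (SE 0.48; limma, Benjamini-Hochberg adjusted p = 0.013). In DAPA vs. MI it was -0.35 (SE 0.37; limma, Benjamini-Hochberg adjusted p = 0.73), and -0.073 without MI rat 2.

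Igfbp5, a binding protein that adheres to the extracellular matrix, had 43.4, 13.8 and 32.4 FPKM in the Sham rats, 65.8, 80.5 and 91.3 in the MI rats, and 53.4, 105 and 117 in the DAPA rats. It was the one of the 9 genes whose highest value lay in a DAPA rat, and the DAPA rats overlapped the MI rats. Igfbp5 rose by 1.504 on the log2 scale in MI vs. Sham (SE 0.39; limma, Benjamini-Hochberg adjusted p = 0.021) and by 1.65 in DAPA vs. Sham (SE 0.45; limma, Benjamini-Hochberg adjusted p = 0.029). Its log2 difference of 0.15 in DAPA vs. MI became -0.074 when set per recovered read.

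Igfbp2, a binding protein known from fetal tissue and from blood, was near or at 0 in most libraries. It had 11, 0 and 0 recovered reads in the Sham rats, 13, 127 and 6 in the MI rats, and 6, 0 and 3 in the DAPA rats. MI rat 2, at 5.62 FPKM, was 6.84-fold above the next rat, Sham rat 1 at 0.821, and no other rat reached 1 FPKM. Igfbp2 was not tested in the main fits. In rats with 0 reads, up to 3 reads could have been missed by counting error alone, which in Sham rat 2 corresponds to 0.228 FPKM. When no filter on low values was applied, the log2 fold change was 0.93 in MI vs. Sham (SE 0.67; limma, Benjamini-Hochberg adjusted p = 0.39) and -1.04 in DAPA vs. MI (SE 0.63, adjusted p = 0.70).

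**Figure D3:**
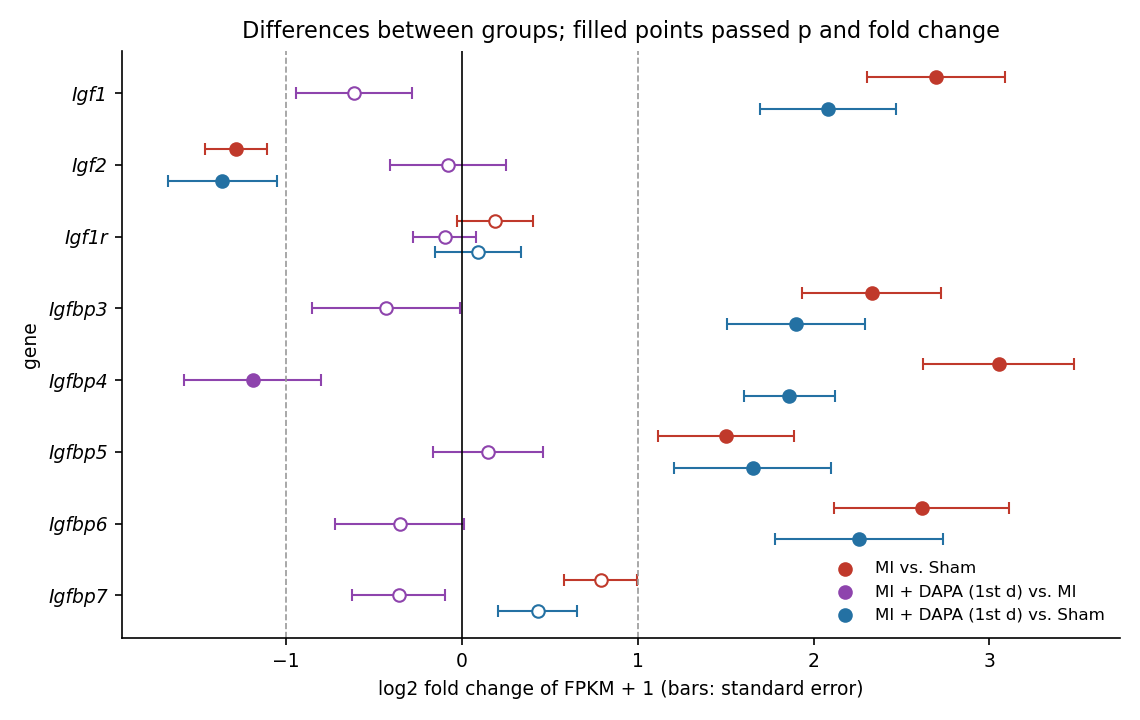
Log2 fold change of FPKM + 1 for the 8 genes tested in the 3 comparisons, with standard errors as bars (3 rats against 3). Filled points passed both the unadjusted limma p and the log2 fold change of 1 in either direction (dashed lines). In the comparisons with group Sham 6 genes are filled in each, and in DAPA vs. MI only Igfbp4 is.

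In DAPA vs. Sham, 5 of the 8 genes tested were called higher, against 9.54% of all genes, and 1 was called lower, against 8.16%. The rats did not overlap for 6 genes in the higher direction, against 23.2% of all genes, and for 1 in the lower direction, against 23.3%. The median log2 fold change of the 8 genes was 1.76, against 0.01 over all genes. The 6 genes called were those called in MI vs. Sham (Igf1, Igf2, Igfbp3, Igfbp4, Igfbp5 and Igfbp6), and both comparisons use the same Sham rats.

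FPKM is a value per length, so levels could be ordered between genes. In group Sham the order by mean FPKM was Igfbp7, Igfbp4, Igf2, Igfbp6, Igfbp5, Igfbp3, Igf1, Igf1r and Igfbp2. From Igf2 to Igf1 each gene overlapped its neighbour, so that order was not resolved within group Sham, and Igf1r overlapped Igfbp2. In group MI the order was Igfbp7, Igfbp4, Igfbp6, Igfbp3, Igfbp5, Igf1, Igf2, Igfbp2 and Igf1r, with neighbours overlapping from Igfbp6 to Igf1 and at the lowest pair. Group MI + DAPA (1st d) had Igfbp7, Igfbp4, Igfbp6, Igfbp5, Igfbp3, Igf1, Igf2, Igf1r and Igfbp2, with neighbours overlapping from Igfbp6 to Igf1. Igfbp7 was first without overlap in all 3 groups. Igfbp4 was second by mean in each, and its rats lay above those of the gene next in order, but in group Sham they overlapped the rats of Igfbp6 and Igfbp5.

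The summed FPKM of the 6 binding proteins was 918 ± 147 (Sham), 2192 ± 271 (MI) and 1550 ± 255 (DAPA) (SD, n = 3), and the 3 groups did not overlap. The log2 difference was 1.26 in MI vs. Sham (SE 0.17; exact permutation p = 0.1) and -0.51 in DAPA vs. MI (SE 0.17; exact permutation p = 0.1). Set against the ligands the sum differed less. It was 22.0 ± 2.38 times the summed ligand FPKM in the Sham rats, 26.8 ± 5.57 times in the MI rats and 26.7 ± 2.99 times in the DAPA rats (SD, n = 3). The log2 difference of that ratio was 0.27 in MI vs. Sham (SE 0.20; exact permutation p = 0.2) and 0.01 in DAPA vs. MI (SE 0.20; exact permutation p = 1.0). The first was 0.43 without MI rat 2 and 0.12 without MI rat 1. Igfbp7 carried most of the sum. Without it the ratio was 3.08 ± 0.609 (Sham), 9.56 ± 1.05 (MI) and 8.39 ± 0.654 (DAPA; SD, n = 3), a log2 difference of 1.65 in MI vs. Sham (SE 0.18; exact permutation p = 0.1).

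The make-up of the binding proteins within a rat did not depend on the scaling either. Igfbp7 held 81.7%, 86.9% and 88.9% of the summed binding protein FPKM in the Sham rats, 73.2%, 49.7% and 65.4% in the MI rats, and 67.9%, 70.2% and 67.4% in the DAPA rats. Igfbp4 held 6.92%, 5.07% and 4.44% in the Sham rats, 13.6%, 32.5% and 15.5% in the MI rats, and 12.7%, 12.0% and 10.7% in the DAPA rats. For both genes every infarcted rat lay outside the range of the Sham rats. The share of Igfbp7 differed in MI vs. Sham by -23.1 percentage points (SE 7.25; exact permutation p = 0.1) and that of Igfbp4 by 15.0 (SE 6.04; exact permutation p = 0.1). Without MI rat 2 the Igfbp4 difference was 9.08 percentage points. In DAPA vs. MI the share of Igfbp4 differed by -8.73 percentage points (SE 6.02; exact permutation p = 0.1), and by -2.75 without MI rat 2. These tests could not reach a p under 0.05 with 3 rats against 3.

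**Figure D4:**
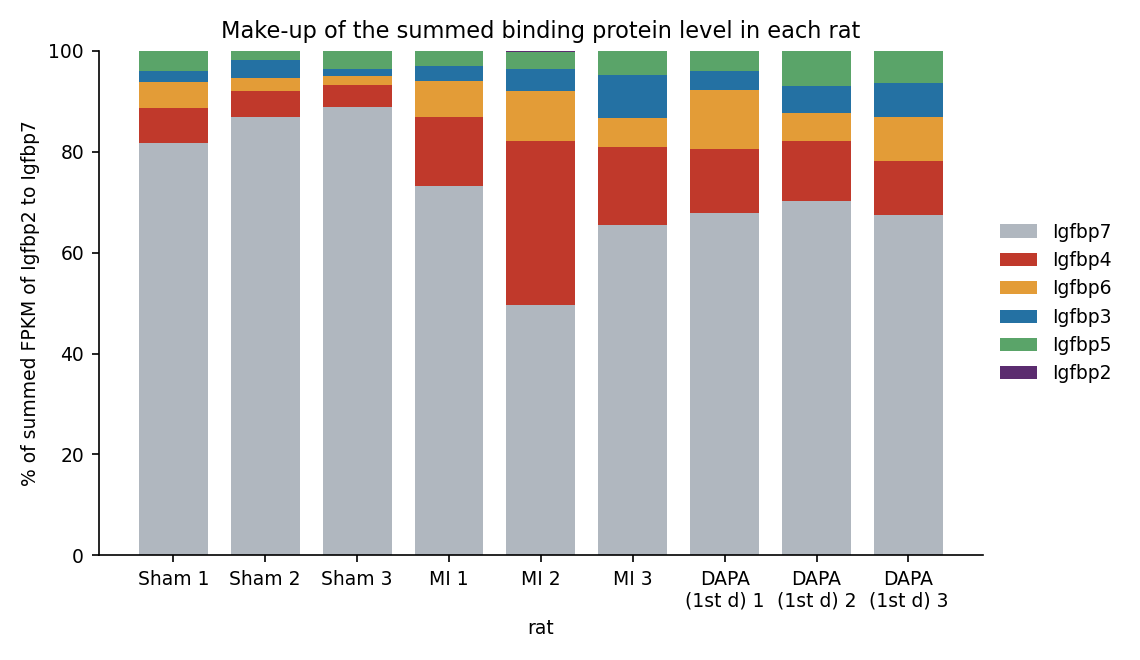
Share of each binding protein in the summed FPKM of Igfbp2 to Igfbp7, 1 bar per rat, in percent. Igfbp7 takes 81.7% to 88.9% in the Sham rats and 49.7% to 73.2% in the MI rats, and the Igfbp4 share of MI rat 2 is 32.5%.

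Markers of other cell types moved in the same comparisons. Between groups MI and Sham, all 11 fibroblast markers tested and all 10 macrophage markers tested were called higher, while 6 of 9 endothelial markers and 3 of 13 cardiomyocyte markers were called lower. Over all genes tested, 12.1% were called higher and 10.3% lower in MI vs. Sham, and 0.951% and 1.11% in DAPA vs. MI. These shares apply to every count of markers in this paragraph. The summed FPKM of the fibroblast markers was 533 to 854 (Sham), 4177 to 8124 (MI) and 2732 to 4615 (DAPA). The summed FPKM of the macrophage markers was 161 to 502, 1972 to 3584 and 1080 to 2003 in the same order. For B cell and plasma cell markers it was 5.58 to 7.46, 35.1 to 3650 and 10.8 to 15.9. Cardiomyocyte markers summed to 7709 to 11251, 2449 to 11858 and 9234 to 19115, and endothelial markers to 1312 to 1690, 437 to 611 and 677 to 770. Of the remaining lists, 2 of 10 mural and smooth muscle markers, 2 of 3 B cell and plasma cell markers, 2 of 6 T cell markers and 1 of 1 adipocyte marker were called higher in MI vs. Sham, and of 2 mesothelial markers 1 was called higher and 1 lower. No list had a marker at 0 in every rat. In DAPA vs. MI, 0 of 10 macrophage markers and 1 of 11 fibroblast markers were called lower, as were 2 of 3 B cell and plasma cell markers and 2 of 6 T cell markers, and 3 of 13 cardiomyocyte markers were called higher. Of 3 mesothelial markers 1 was called lower, of 2 adipocyte markers 1 was called higher, and of 10 mural and 9 endothelial markers 0 were called in either direction. Only markers that passed the filter on low values were tested, while 5 B cell and plasma cell, 6 adipocyte and 6 mesothelial markers had been found. Of the B cell and plasma cell markers, 3 were tested in each comparison with group MI and 2 in DAPA vs. Sham. A marker could thus pass the filter only through the rats in which it was high, and the counts of these lists are descriptions. The part of these cell types in the values of the IGF genes was not tested.

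The genes with the most similar profiles over the 9 rats were found by the root mean square difference of centred log2(FPKM + 1) among 13078 genes. For Igf1 they were Csf1r (0.13), Cybb (0.17) and Fcgr1a (0.22), against a spread of 1.25 for Igf1 about its own mean. Csf1r is the receptor of macrophage colony-stimulating factor, Cybb a subunit of the phagocyte NADPH oxidase and Fcgr1a a receptor for immunoglobulin G. For Igfbp4 the nearest were Agtr1a (0.20), the angiotensin II type 1 receptor, Colec12 (0.27) and Cd74 (0.29), and for Igfbp6 Cebpa (0.23), Cd14 (0.26) and Spi1 (0.27). For Igfbp3 they were AABR07005844.1 (0.356), Slamf8 (0.362), a receptor of myeloid cells, and Glipr2 (0.379). Igfbp5 had Ormdl1 (0.27) as its nearest, against a spread of 0.90, and Igf1r had Rab1a (0.051), against a spread of 0.14. A gene that varied little had small distances by this measure, so distances do not compare between genes of unlike spread. Igf2 was nearest to Abraxas1 (0.20), and Igfbp7 to Tnpo1 (0.095) and Col4a1 (0.11), a collagen of basement membranes. The spread was 0.71 for Igf2, 0.37 for Igfbp7 and 1.13 to 1.34 for Igfbp3, Igfbp4 and Igfbp6. Among the IGF genes themselves the closest pair was Igf1 and Igfbp6 (0.28) and the farthest was Igf2 with Igfbp6 (1.93). The rats, their libraries and the scaling are common to all these profiles, so the distances are descriptions.

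The rest of the pathway was read from lists of 86 genes found in the table. In MI vs. Sham 19 of 71 tested genes were called higher, against 12.1% of all genes, and 1 lower, against 10.3%. In DAPA vs. MI 0 of 72 were called higher, against 0.951%, and 1 lower, against 1.11%. In DAPA vs. Sham 15 of 71 were called higher, against 9.54%, and 0 lower, against 8.16%. These shares over all genes also apply to the counts of each list that follows. Receptors and adaptors had 2 of 8 genes called higher in MI vs. Sham. Irs1, an insulin receptor substrate, went from 0.303, 0.327 and 0.318 FPKM in the Sham rats to 3.28, 3.45 and 2.68 in the MI rats. In the DAPA rats Irs1 was 1.91, 1.15 and 2.86, above every Sham rat. It passed the filter on low values only through the infarcted rats, so its test is not given, and the counts above include it. Shc1, an adaptor that links the receptor to RAS, rose by 1.13 on the log2 scale (SE 0.19; limma, Benjamini-Hochberg adjusted p = 0.0047).

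The list of proteases that cut binding proteins, together with protease inhibitors, had 7 of 10 tested genes called higher in MI vs. Sham and 6 of 10 in DAPA vs. Sham, with Timp1, an inhibitor of metalloproteases, in both counts. Mmp2, a gelatinase, had 40.3, 21.9 and 21.2 FPKM in the Sham rats, 349, 515 and 211 in the MI rats, and 122, 192 and 287 in the DAPA rats, a log2 fold change of 3.61 in MI vs. Sham (SE 0.37; limma, Benjamini-Hochberg adjusted p = 0.0013). Adam9, a membrane metalloprotease, rose by 2.05, Htra3, a secreted serine protease, by 1.74 and Ctsd, the lysosomal protease cathepsin D, by 1.36 (SE 0.23, 0.29 and 0.19). In DAPA vs. MI none of the 10 was called, with log2 differences of -0.83 for Mmp2, -0.40 for Adam9, -0.20 for Htra3 and 0.03 for Ctsd.

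Other genes with an IGFBP-type domain, and the acid-labile subunit, had 4 of 7 tested genes called higher in MI vs. Sham and 1 lower. Ccn5, a matricellular protein, went from 5.93, 0.701 and 1.82 FPKM in the Sham rats to 313, 247 and 148 in the MI rats. In the DAPA rats Ccn5 was 204, 79.5 and 152. It passed the filter on low values only with the infarcted rats counted, so its test is not given, and the counts above include it. Ccn2, connective tissue growth factor, rose by a log2 fold change of 2.87 in MI vs. Sham (SE 0.52) and Kazald1 by 1.71 (SE 0.34). Esm1, which is made by endothelial cells, fell by 1.64 on the log2 scale (SE 0.48; limma, Benjamini-Hochberg adjusted p = 0.034). Ccn3 was the 1 pathway gene called in DAPA vs. MI, at 67.5, 55.6 and 22.9 FPKM in the MI rats and 22.0, 10.2 and 19.8 in the DAPA rats, a log2 fold change of -1.37 (SE 0.45; limma, Benjamini-Hochberg adjusted p = 0.56). It was not called without MI rat 1, MI rat 2 or DAPA rat 2, with all 9 rats in 1 fit, or by adjusted p, and it is named here after its values were seen.

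Cell surface proteins that bind or carry binding proteins had 2 of 6 tested genes called higher in MI vs. Sham. These were Lrp1, an endocytic receptor, with a log2 fold change of 2.85 (SE 0.25), and Itgav, the integrin subunit alpha V, with 1.69 (SE 0.24). Of the growth hormone axis 0 of 8 genes were called in any comparison, while 4 had a limma Benjamini-Hochberg adjusted p under 0.05 in MI vs. Sham with smaller fold changes. These ran from -0.88 to 0.94 on the log2 scale, so that some were lower and some higher in group MI. Of the PI3K-AKT and MAPK genes after the receptor, 4 of 32 were called higher in MI vs. Sham and 2 of 32 in DAPA vs. Sham, against 12.1% and 9.54% of all genes. The first count was near the share over all genes and the second below it. By limma, 17 of the 32 had a Benjamini-Hochberg adjusted p under 0.05 in MI vs. Sham. Some of these were higher and some lower in group MI, with -0.83 as the lowest log2 fold change. The 4 genes called higher in MI vs. Sham were Foxo3, Pik3r1 (log2 fold change 1.504, SE 0.25), Eif4ebp1 (1.36, SE 0.31) and Foxo1 (1.16, SE 0.28). They encode 2 transcription factors that AKT inhibits, a regulatory subunit of PI3K and a repressor of translation that mTOR inhibits. Foxo3 had 0.564, 1.72 and 0.749 FPKM in the Sham rats and 9.45, 7.85 and 6.07 in the MI rats. In the DAPA rats Foxo3 was 6.25, 3.83 and 6.93. It passed the filter on low values only with the infarcted rats counted, so its test is not given, and the counts include it.

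**Figure D5:**
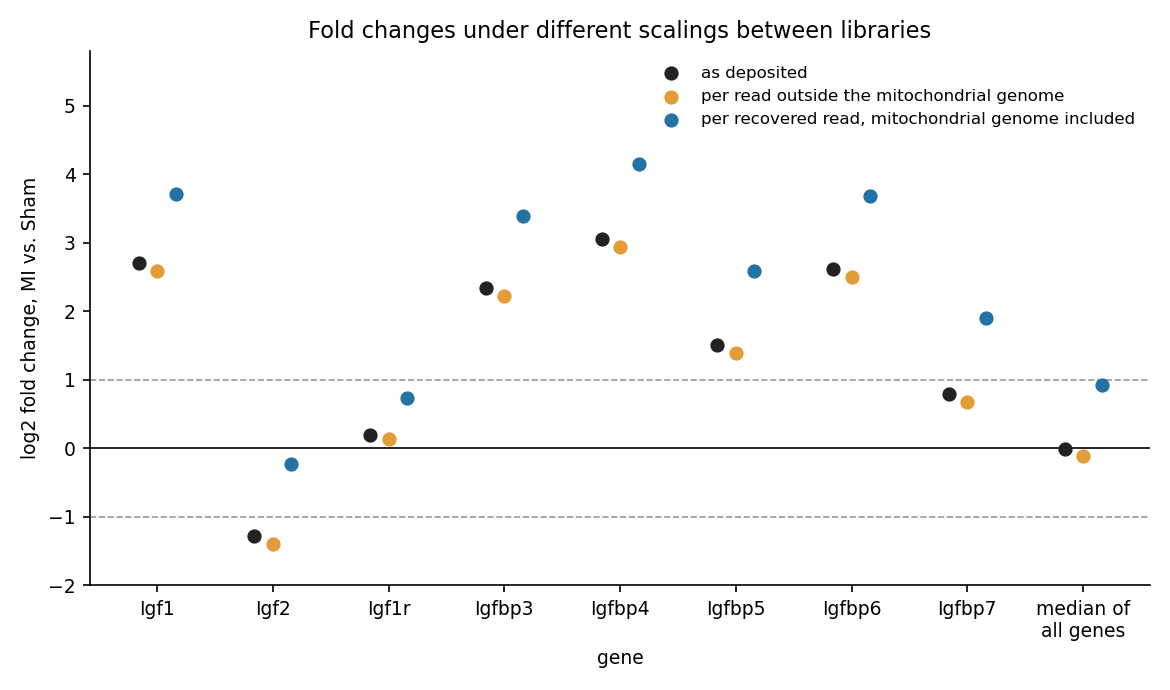
Log2 fold change in MI vs. Sham of the 8 genes and of the median gene under 3 scalings between libraries: as deposited, per read outside the mitochondrial genome, and per recovered read. Dashed lines mark a log2 fold change of 1 in either direction. The median gene moves from -0.01 to 0.92 with the mitochondrial genome in the denominator, Igf2 moves from -1.28 to -0.23, and Igfbp7 from 0.79 to 1.90.

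With the mitochondrial genome in the denominator, 95.5% of all genes called in MI vs. Sham were higher, against 54.0% as deposited, and in DAPA vs. MI 17.5% were higher against 46.2%. Igf1, Igfbp3, Igfbp4, Igfbp5 and Igfbp6 were called higher in MI vs. Sham under each scaling. Per recovered read, the log2 fold changes ran from -0.23 for Igf2 to 4.15 for Igfbp4, against the median of 0.92 over all genes.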

How the data were processed

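The authors sequenced poly-A selected libraries as paired ends, from left ventricles of 3 groups of 3 rats at day 28. The sample titles give a pair of codes per sample, such as MI1-1 and MI1-2, without saying what they stand for. The table holds 1 column per sample, and each sample was taken as 1 rat because the study gives 3 biological replicates per group. The authors deposited FPKM values for 35843 genes, divided by gene length and a library size. The submitters' processing notes name HISAT2 2.0.5, StringTie 1.3.3b, featureCounts 1.5.0-p3 and DESeq2 without their roles, and the genome build is not given in the sources used here. Coordinates and promoters are those of RefSeq on GRCr8, and all 9 genes matched by symbol.

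Whole reads were recovered from the steps of the values for 18896 of the 18896 genes above 0 in 4 or more libraries (tolerance 0.003), and 4359 genes with values in fewer libraries were left out of the read totals. The median-ratio size factors of the deposited values were 1.00 to 1.01. Intervals and floors cover counting error only.

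Tests were run with limma 3.58.1 in R 4.3.3 on log2(FPKM + 1). Each fit held the 6 rats of 1 comparison, the prior variance was allowed to follow the mean (trend), and a gene needed 1 FPKM or more in 3 or more rats. A call needed an unadjusted p below 0.05 and a log2 fold change beyond 1 in either direction. These cut-offs are those of the study, which applied them to DESeq2 results and did not state whether p was adjusted. Benjamini-Hochberg adjusted p-values over all genes tested stand beside the calls. Ratios and shares were tested between groups by exact permutation over rats, two-sided, with a pseudocount of 0.1 in the ratio of Igf2 to Igf1. On data simulated at the depths of the MI and Sham libraries, 96.5% of 200 changed genes among 13357 were called, with 70 unchanged genes called as well, and 99.7% of 18451 genes had their reads recovered exactly. The changed genes lay above the filter and all had the same size of change, larger than the fold-change threshold. Every gene had the same spread setting. The 96.5% therefore does not give the power for smaller changes or for genes that varied more between rats. Reads were recovered and plots drawn in Python 3.11.15 (matplotlib 3.10.9, numpy 2.4.6, pandas 2.3.3).

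The 9 genes and the lists of pathway genes and markers were chosen with earlier results of these data known. Of each pathway list at most 4 genes are named, those called in MI vs. Sham or DAPA vs. MI with the smallest p. Ccn3, the one pathway gene called in DAPA vs. MI, and Timp1 were named outside this rule after their values were seen. The nearest genes were the 3 closest by profile among named genes with 1 FPKM or more in 3 or more of the 9 rats, of which the text names some. Alternatives were another pseudocount, a block for the replicate number, 1 fit of all 9 rats, no filter, 3 other scalings, 2 other thresholds and each rat left out in turn. No column of the table was left unused (0). Replicate numbers come from the column names.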

Additional observations from a re-analysis of the deposited data

How the results depend on the processing

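Of the values of single IGF genes recomputed under the alternatives, 297 kept their direction and their side of the threshold, 5 turned direction, 4 lost and 2 gained a call. The 2 other thresholds were applied to the counts of genes called and are not in this tally. With no fold-change threshold, 7 of the IGF genes were called in MI vs. Sham. In MI vs. Sham and in DAPA vs. Sham, the count of IGF genes called was 6 under every alternative that kept the fold-change threshold, set per recovered read with Igfbp7 in place of Igf2. Set per recovered read, 6388 genes were called in MI vs. Sham and 4666 in DAPA vs. Sham, and 53 and 42 pathway genes. Igfbp5 in DAPA vs. MI turned to -0.074 there. With no fold-change threshold, 6605, 1125 and 5534 genes and 48, 6 and 38 pathway genes were called in MI vs. Sham, DAPA vs. MI and DAPA vs. Sham. By adjusted p, 0 genes, 0 of the IGF genes and 0 pathway genes were called in DAPA vs. MI. The ratio of binding proteins to ligands without Igfbp7 differed by -0.19 there. In that comparison 2 pathway genes were called with a pseudocount of 0.1 and 0 with all 9 rats in 1 fit, settings chosen for the pathway genes after seeing the data, as were the shares with a rat left out. The cause was not tested.

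With each rat left out in turn in DAPA vs. MI, 0 to 1 of the IGF genes were called (0 without MI rat 2 or without DAPA rat 1), 111 to 561 of all genes and 0 to 4 pathway genes. The log2 fold change of Igf2 was -0.38 to 0.27 and that of Igfbp5 -0.063 to 0.50, the log2 ratio of binding proteins to ligands -0.15 to 0.15, and that of Igf2 to Igf1 -0.0099 to 0.86. Shares there ranged, in percentage points, from -1.28 to 1.502 for Igfbp3, -0.49 to 2.56 for Igfbp6 and -0.79 to 10.98 for Igfbp7. In MI vs. Sham they ranged from -0.0072 to 0.10 for Igfbp2 and from -0.16 to 0.98 for Igfbp5. In DAPA vs. Sham Igfbp2 ranged from -0.029 to 0.0095, and the log2 fold change of Igf1r from -0.042 to 0.12.

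The rats are different animals that share only a number. With the replicate block 6, 1 and 6 of the IGF genes and 3044, 217 and 2404 of all genes were called in the 3 comparisons. Deviations of same-numbered rats correlated at 0.021, -0.17 and 0.10 on average, not every rat correlated best with its own number in any comparison, and the numbers were not taken as pairs. The block changed the call of no IGF gene. Genes with few reads, such as Igfbp2 and Igf1r, are limited by depth. Reads outside the mitochondrial genome were fewest in group Sham, although its recovered reads in all were not.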
